A study of Mus musculus with 2 samples.

Results

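The genes described here are the TNF ligand and receptor superfamily with its TRAF adaptors. They were taken by symbol from the genes that 1-gene probes carry on the array: symbols starting with Tnfsf, Tnfrsf or Traf and a number, and Tnf, Lta, Ltb, Ltbr, Fas, Fasl, Cd27, Cd40, Cd40lg, Cd70, Eda2r and Ngfr, with Tnfrsf17 left out. The rule itself uses no measured value, but it was set with earlier results of these data known. It gave 44 of the 13840 genes named on the array: 16 ligands, 21 receptors (5 with a death domain, 13 without one and 3 decoys), 6 TRAF adaptors and Traf3ip2. Among further genes of these symbols, Cd27, Tnfrsf1b, Tnfrsf10b, Tnfrsf14, Tnfsf12, Traf3, Traf3ip1 and Traf3ip3 are not analysed here.

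TNF family ligands are trimers, mostly anchored in the membrane of immune cells, and each binds 1 or a few receptors. Receptors with a death domain can assemble the caspase machinery of apoptosis. The others recruit TRAF proteins, which start NF-kB and stress kinase signalling and so support survival, costimulation of lymphocytes and inflammation. In the lung this family is known for the cytokine TNF itself, for the death receptor Fas on epithelium and macrophages, and for the costimulatory receptors of activated T cells.

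The data are 2 one-colour arrays of mouse lung, 1 of wild-type and 1 of Rosa26-Foxm1 mice, both taken 12 weeks after the carcinogen 3-methylcholanthrene. All mice of both groups had received it once, at 15 µg per g body weight by intraperitoneal injection, and then 6 weekly injections of the lung tumour promoter butylated hydroxytoluene (150 µg/g first, 200 µg/g afterwards). Each array held a pool of RNA from the left lobes of 3 mice. By their labels the wild-type animals were FVB/N males. For the Rosa26-Foxm1 mice, which carry Foxm1, a forkhead factor of the cell cycle, under a name that refers to the broadly active Rosa26 locus, the labels used here state neither sex nor strain, nor is age given for either group. Sex, strain and genotype therefore cannot be told apart, and no untreated lung was analysed here.

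The comparison asks how gene expression in carcinogen-treated lung differed with the Foxm1 transgene. Each group has a single array, so replicate spread is unknown, nothing could be tested and all differences below describe these 2 pools. Intensities are the authors' values after quantile normalisation, on an arbitrary scale. The floor is each array's 50th percentile, an intensity of 1.00, and the 75th percentile is 7.47. A gene above the floor on at least 1 array counts as measured, which 9516 genes did. The only error that could be estimated is the probe SD, the error of a single probe's log2 difference, taken from 317 genes with at least 2 measured probes. It was 0.31 on the log2 scale, 0.38 for dimmer and 0.23 for brighter probe pairs, and leaves out differences between mice. Lung markers were bright on both arrays, with Sftpc of alveolar type II cells at 1228 in the wild-type pool and 859 in the Rosa26-Foxm1 pool and Scgb1a1 of club cells at 2544 and 1767. Foxm1 itself was near the floor on both (1.13 and 1.23), and whether its probe reads the transgene was not checked.

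Of the 44 genes, 31 were measured. In Rosa26-Foxm1 lung, 5 of these were at least 1.5-fold higher: the receptors Tnfrsf9, Tnfrsf26, Tnfrsf4 and Tnfrsf18 and the ligand Tnfsf13. Another 5 were at least 1.5-fold lower: the receptors Fas, Tnfrsf19 and Tnfrsf21 and the ligands Tnfsf8 and Tnf. Of all measured genes, 7.08% were 1.5-fold higher and 8.45% lower, beside 16.1% of the members each way. Tnfrsf9 and Tnfrsf26 were past 2-fold upward, where the share of all measured genes was 1.98%, and Fas was past it downward, against 1.51%. The family showed no common direction. Its median log2 difference was -0.02, beside -0.06 over all measured genes, with 14 members above 0 and 17 below, and 15 of the 31 lay within the probe SD. The median was 0.04 with median scaling.

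These shares differ with brightness. Of 13 members above the 75th percentile on at least 1 array, 3 were 1.5-fold higher and 1 lower, where 5.26% and 6.55% of all such genes were. Of the 18 dimmer members, 2 were higher and 4 lower, against 9.57% and 11.0% of the dimmer genes. Tnf stood just inside the 1.5-fold line of 0.58 on the log2 scale (-0.59), and Traf4 (0.49) and Tnfrsf1a (-0.42) just outside it.

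**Figure D1:**
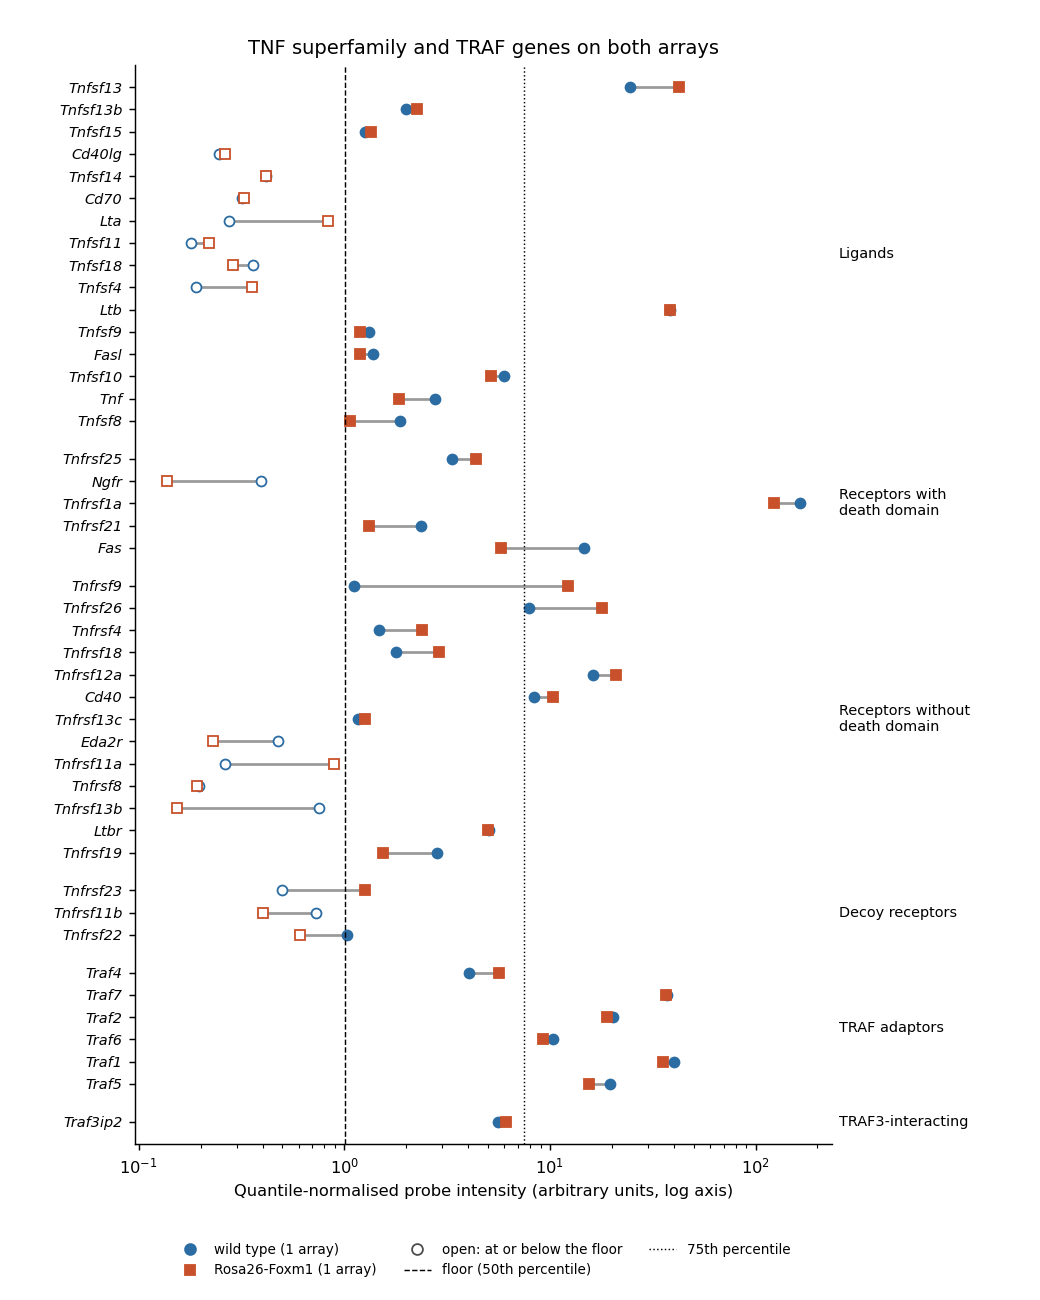
Quantile-normalised probe intensity (arbitrary units, log axis) of all 44 genes on the wild-type (blue circles) and Rosa26-Foxm1 (red squares) array, 1 array each, ordered by role and then by difference. Open symbols are at or below the floor (dashed line), and the dotted line is the 75th percentile. Tnfrsf9 has the longest bar of the genes above the floor, from 1.11 to 12.3, and 13 genes lie left of the floor on both arrays.

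Promoter windows of 4 genes past 1.5-fold are shown here, chosen after their values were seen because they hold the motif matches described next. They run from 250 bases before to 50 after the start, 5′ to 3′ on the gene's strand, from RefSeq on GRCm38.p6. That table held 35 of the 44 genes, in 39 windows, and Tnfrsf26 was not among them. Capitals mark matches, on either strand, to 4 motifs: the NF-kB consensus known as the kappa B site, the AP-1 site TGANTCA, the forkhead core TAAACA and the TATA box TATAAA. Position -1 is the base before the start. Tnfrsf9 has 2 listed starts, at chr4:150919905-150920204 and chr4:150927749-150928048, both on the plus strand. Fas lies at chr19:34290409-34290708 on the plus strand, Tnfsf13 at chr11:69685505-69685804 and Tnf at chr17:35201958-35202257, both on the minus strand.
Tnfrsf9, upstream start: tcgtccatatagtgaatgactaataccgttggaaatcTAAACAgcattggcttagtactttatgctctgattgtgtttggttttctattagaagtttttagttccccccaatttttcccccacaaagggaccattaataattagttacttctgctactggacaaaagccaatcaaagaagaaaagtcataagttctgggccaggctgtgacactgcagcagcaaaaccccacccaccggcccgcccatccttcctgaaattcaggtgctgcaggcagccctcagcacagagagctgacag
Tnfrsf9, downstream start: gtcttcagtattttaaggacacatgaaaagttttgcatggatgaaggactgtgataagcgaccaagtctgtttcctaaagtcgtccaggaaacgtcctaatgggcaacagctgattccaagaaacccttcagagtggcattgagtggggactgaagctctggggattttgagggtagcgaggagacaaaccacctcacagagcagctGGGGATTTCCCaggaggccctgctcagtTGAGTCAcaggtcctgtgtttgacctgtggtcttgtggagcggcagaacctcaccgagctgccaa
Fas: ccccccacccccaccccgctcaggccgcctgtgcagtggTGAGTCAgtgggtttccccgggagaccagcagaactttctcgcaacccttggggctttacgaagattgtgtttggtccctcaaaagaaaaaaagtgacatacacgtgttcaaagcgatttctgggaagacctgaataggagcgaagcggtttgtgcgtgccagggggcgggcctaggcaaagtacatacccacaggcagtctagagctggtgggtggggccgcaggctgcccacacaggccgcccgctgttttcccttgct
Tnfsf13: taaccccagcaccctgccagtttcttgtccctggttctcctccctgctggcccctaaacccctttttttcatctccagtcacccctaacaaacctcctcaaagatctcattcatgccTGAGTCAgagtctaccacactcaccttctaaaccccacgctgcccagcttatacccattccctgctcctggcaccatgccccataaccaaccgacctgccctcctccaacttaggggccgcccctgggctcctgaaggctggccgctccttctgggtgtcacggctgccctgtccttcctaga
Tnf: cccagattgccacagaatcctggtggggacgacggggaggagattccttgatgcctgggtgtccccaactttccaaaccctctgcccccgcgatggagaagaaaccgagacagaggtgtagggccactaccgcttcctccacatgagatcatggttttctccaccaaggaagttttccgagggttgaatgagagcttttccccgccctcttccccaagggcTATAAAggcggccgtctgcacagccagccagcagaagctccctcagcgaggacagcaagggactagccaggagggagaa

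The downstream Tnfrsf9 window holds a kappa B match read 2 ways by overlap, GGGGATTTCC from position -43 and GGGATTTCCC from -42, and an AP-1 match from -15. The upstream window holds a forkhead match from -213 and neither of the others. Fas and Tnfsf13 each hold 1 AP-1 match, from -211 and -133, and Tnf a TATA box from -29. Of the genes past 1.5-fold not printed, Tnfrsf19 holds a forkhead match from position 18 in 1 of its 2 windows. Over all 32851 windows of the table, 8.46% hold a kappa B match, 7.81% an AP-1 match, 13.4% a forkhead match and 13.6% a TATA box. The 39 member windows hold them in 4, 7, 5 and 6 cases. The 2 windows of Tnfsf13b overlap and share 1 AP-1 match, which is counted in both. The windows of Tnfrsf4, Tnfrsf18, Tnfrsf21 and Tnfsf8 hold none of the 4 motifs, which says only that these letters are not in those 300 bases. Which start was used in these lungs was not measured, and a match is not a shown site.

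Of the 16 ligands, 9 were measured, 1 was 1.5-fold higher (11.1%, beside 7.08% of all measured genes) and 2 were lower (22.2%, beside 8.45%), and their median log2 difference was -0.16. Tnfsf13 encodes APRIL, a survival factor of plasma cells made largely by myeloid cells. Its intensity was 24.5 in the wild-type pool and 42.3 in the Rosa26-Foxm1 pool, 1.73-fold higher (0.79 on the log2 scale). It is 1 of 2 ligands, with Ltb, that were above the 75th percentile on both arrays. Of 9 measured macrophage markers, 5 were at least 1.5-fold higher in the same pool (55.6%, beside 7.08% of all measured genes) and 2 lower (22.2%, beside 8.45%). Their summed intensity was 95.9 in wild type and 331 with the transgene, or 81.3 and 109 without Gpnmb and Mmp12, and Siglecf (-1.26), Marco (-0.75, a bound) and Adgre1 (-0.56) were below 0. Of 5 plasma cell markers, 3 were higher (60%) and 1 lower (20%). They summed to 274 and 619, but to 225 and 207 without Jchain. Their part in the Tnfsf13 value was not tested, and in whole lung more cells of a type cannot be told apart from more RNA per cell. All cell type marker lists used here were made with earlier results of these data known, so their shares are description only.

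Tnf, the cytokine of activated macrophages and T cells that names the family, went the other way. It was low on both arrays, at 2.76 in the wild-type pool and 1.84 in the Rosa26-Foxm1 pool, with a log2 difference of -0.59. The difference was -0.57 with loess scaling, short of 1.5-fold. Tnfsf8, the CD30 ligand, was at 1.87 and 1.07, a log2 difference of -0.80 close to the floor. Its receptor Tnfrsf8 was below the floor on both arrays.

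The remaining measured ligands differed by less than the probe SD. Ltb, the membrane lymphotoxin subunit that directs lymphoid tissue formation, was at 38.5 and 38.2. Tnfsf10, which encodes the apoptosis ligand TRAIL, had deposited intensities of 6.09 and 5.07 (-0.27 on that scale). Tnfsf13b, the B cell survival factor BAFF, had deposited intensities of 2.05 and 2.22 (0.12 on that scale). Tnfsf15 (TL1A, a T cell costimulator) had 1.26 and 1.35, and Tnfsf9, the 4-1BB ligand, 1.32 and 1.19. Fasl, the Fas ligand of cytotoxic lymphocytes, had 2 probes, the brighter at 1.38 and 1.19 and the other at 0.943 and 1.10, with opposite signs close to the floor.

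Below the floor on both arrays were 7 ligands: Lta, Cd40lg, Cd70, Tnfsf4, Tnfsf11, Tnfsf14 and Tnfsf18. As deposited, they lay between 0.164 and 0.395 in wild-type lung and between 0.237 and 0.847 with the transgene. Values under the floor have no order and give no difference. The T cell ligand of CD40, the OX40 ligand (Tnfsf4) and the GITR ligand (Tnfsf18) are among them.

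Among receptors with a death domain, 3 of 4 measured were below 0. Of these 4, 2 were 1.5-fold lower (50%, beside 8.45% of all measured genes) and none was higher, where 7.08% of all were. Fas, the receptor through which Fas ligand starts apoptosis, was at 14.6 in the wild-type pool and 5.79 in the Rosa26-Foxm1 pool, 2.53-fold lower (-1.34 on the log2 scale), and 41 of the 9516 measured genes had a lower value. It was above the floor on both arrays and above the 75th percentile in wild-type lung. Tnfrsf21, which encodes death receptor 6, was at 2.35 and 1.31, 1.79-fold lower. Tnfrsf1a, the main receptor for soluble TNF on most cells, was at 165 and 123, a log2 difference of -0.42, and -0.30 with median scaling. Tnfrsf25, the TL1A receptor DR3 of T cells, was above 0 at 3.34 and 4.38 (0.39). Ngfr was below the floor on both. Of 10 endothelial markers, 8 were at least 1.5-fold lower in the same pool (80%, beside 8.45% of all measured genes), with summed intensities of 1269 and 692. Of 9 fibroblast markers, 4 were lower (44.4%), with sums of 1303 and 1064. In each list 1 marker, Vwf (0.49) and Lum (0.52), was above 0. The part of both marker lists in the values of Fas and Tnfrsf21 was not tested.

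Receptors without a death domain held 4 of the 5 higher genes. Of 13, 9 were measured, and their median was 0.37. Of these 9, 4 were 1.5-fold higher (44.4%, beside 7.08% of all measured genes) and 1 lower (11.1%, beside 8.45%). Tnfrsf9 encodes 4-1BB, a costimulatory receptor that appears on T and NK cells and myeloid cells after activation. Its intensity was 1.11 in the wild-type pool, just above the floor, and 12.3 in the Rosa26-Foxm1 pool, an 11.1-fold difference (3.47 on the log2 scale) that 3 of the 9516 measured genes exceeded. Since the wild-type value lies so near the floor, the size of the fold rests on it. A floor at the 75th percentile brought the log2 difference to 0.72, still above 1.5-fold. A single probe carries the gene, and its target sequence was not checked.

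Tnfrsf26, a mouse receptor beside the TRAIL decoys on the chromosome, had 7.95 in the wild-type pool and 17.9 in the Rosa26-Foxm1 pool, 2.25-fold higher and above the 75th percentile on both arrays. Tnfrsf4 (OX40) and Tnfrsf18 (GITR) are costimulatory receptors of activated and regulatory T cells. Tnfrsf4 was at 1.47 and 2.40, 1.63-fold higher, and Tnfrsf18 at 1.79 and 2.90, likewise 1.63-fold higher (0.70 on the log2 scale for both). Both were in the dim range, where 9.57% of genes were 1.5-fold higher. Of 14 measured T and NK cell markers, 3 were 1.5-fold higher (21.4%, beside 7.08% of all measured genes) and none lower, where 8.45% of all were. Their median was 0.02, with 7 above 0 and 7 below. The summed intensity was 121 in the wild-type pool and 126 in the Rosa26-Foxm1 pool. The highest were Thy1 at 1.04 or more, since its wild-type value was under the floor, then Cd3g at 0.76 and Cd28 at 0.60. Cd5 (-0.41), Prf1 (-0.38) and Cd3e (-0.34) were the lowest. Cd4 was below the floor on both arrays. The part of T and NK cells in the Tnfrsf4 and Tnfrsf18 values was not tested.

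In the other direction, Tnfrsf19 (TROY), a receptor of epithelial progenitors and the nervous system, was at 2.81 in the wild-type pool and 1.53 in the Rosa26-Foxm1 pool, 1.83-fold lower. Tnfrsf12a (Fn14), the TWEAK receptor of injured epithelium and stroma, was at 16.3 and 21.0 (0.37), beyond the probe SD but short of 1.5-fold. Cd40, the receptor of B cells and antigen-presenting cells, was at 8.40 and 10.4, and the lymphotoxin beta receptor Ltbr at 5.07 and 5.01. Tnfrsf13c, the BAFF receptor of B cells, was at 1.17 and 1.26 (0.11). B cell markers had a median of -0.66 over 6 measured genes, with summed intensities of 77.2 and 54.4. Of these 6, 3 were 1.5-fold lower (50%, beside 8.45% of all measured genes) and 1 higher (16.7%, beside 7.08%). Eda2r, Tnfrsf8, Tnfrsf11a (RANK) and Tnfrsf13b (TACI) were below the floor on both arrays.

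Decoy receptors bind a ligand without passing on a signal. Tnfrsf22 and Tnfrsf23, the mouse decoys for TRAIL, were each above the floor on 1 array only. Tnfrsf22 had 1.03 in the wild-type pool and 0.605 in the Rosa26-Foxm1 pool, at least 1.02-fold lower, and Tnfrsf23 had 0.499 and 1.26, at least 1.26-fold higher. Tnfrsf11b (osteoprotegerin), the decoy for RANK ligand, was below the floor on both. Tnfrsf22, Tnfrsf23 and Tnfrsf26 are related genes in 1 cluster, and how far their probes tell them apart was not checked.

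**Figure D2:**
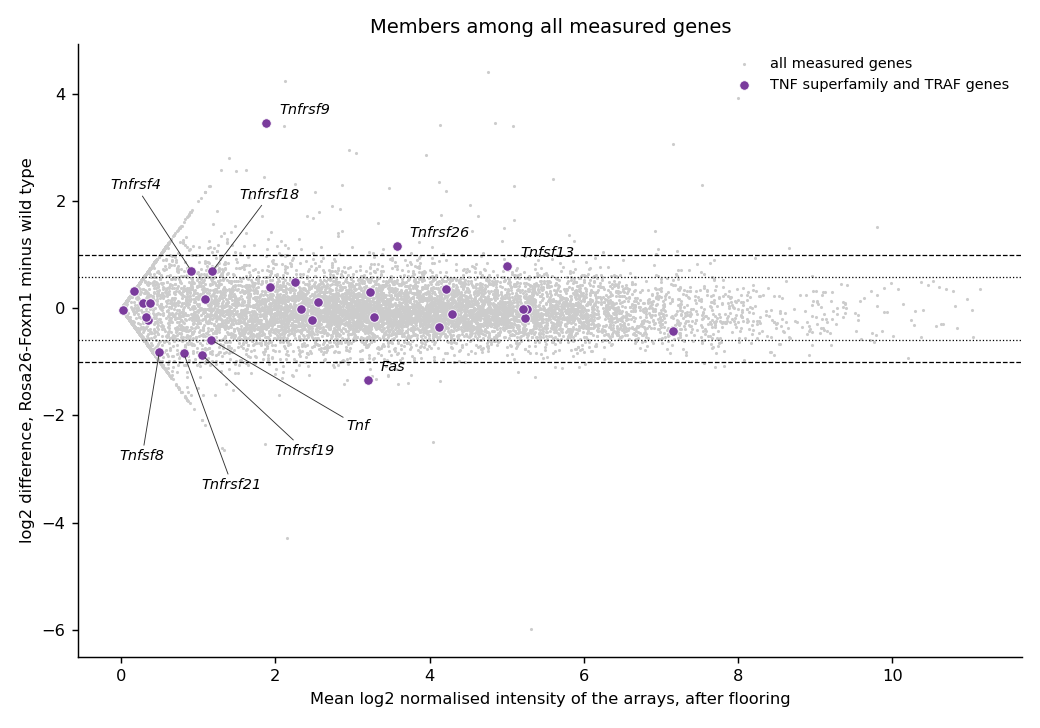
Log2 difference (Rosa26-Foxm1 minus wild type) against the mean log2 normalised intensity of the arrays for all 9516 measured genes (grey), with the 31 measured TNF superfamily and TRAF genes in purple and those past 1.5-fold named. Dotted lines mark 1.5-fold and dashed lines 2-fold. Tnfrsf9 (3.47) stands near the top of the plot, Fas (-1.34) and Tnfrsf26 (1.17) lie past 2-fold, and the other members lie inside.

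All 6 TRAF adaptors were measured and none reached 1.5-fold either way, where 7.08% of all measured genes were higher and 8.45% lower. With only 6 genes, this cannot be told apart from those shares. Their median log2 difference was -0.13. Traf2, which with Traf5 links most of these receptors to NF-kB, was at 20.3 in the wild-type pool and 19.0 in the Rosa26-Foxm1 pool. Traf5 was at 19.6 and 15.4, the lowest difference of the group (-0.35). Traf1, an NF-kB target that binds 4-1BB together with Traf2, was at 40.3 and 35.5 (-0.18). Traf6, the adaptor of CD40, RANK and the IL-1 and Toll-like receptors, was at 10.3 and 9.21, with a second probe below the floor on both arrays. Traf7 was at 37.2 and 36.7. Traf4 was the 1 adaptor above 0 beyond the probe SD, at 4.05 and 5.68 (0.49). Traf3ip2, the adaptor Act1 of the IL-17 receptor, was at 5.62 and 6.11 (0.12).

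Of 17 ligand and receptor pairs known to bind each other, 8 had both members measured. In 6 of these both log2 differences had the same sign and in 2, Tnfsf9 with Tnfrsf9 and Tnfsf10 with Tnfrsf23, opposite signs, though several lay within the probe SD and some genes stand in more than 1 pair. The 4-1BB pair was the widest apart, with Tnfrsf9 at 3.47 and its ligand Tnfsf9 at -0.16 on the log2 scale. For Fas (-1.34) the ligand Fasl was at -0.21. Both TNF (-0.59) and its receptor Tnfrsf1a (-0.42) were below 0. OX40 and GITR were higher while their ligands were below the floor on both arrays. Among the B cell and plasma cell factors, Tnfsf13 was higher at 0.79 and Tnfsf13b within the probe SD (0.17). Tnfrsf13b, paired with both ligands, was below the floor, and Tnfrsf13c, paired with Tnfsf13b only, was at 0.11. TL1A and its receptor DR3 were at 0.10 and 0.39, and lymphotoxin beta and its receptor at -0.01 and -0.02 (0.05 and -0.07 with median scaling, so of opposite sign there).

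**Figure D3:**
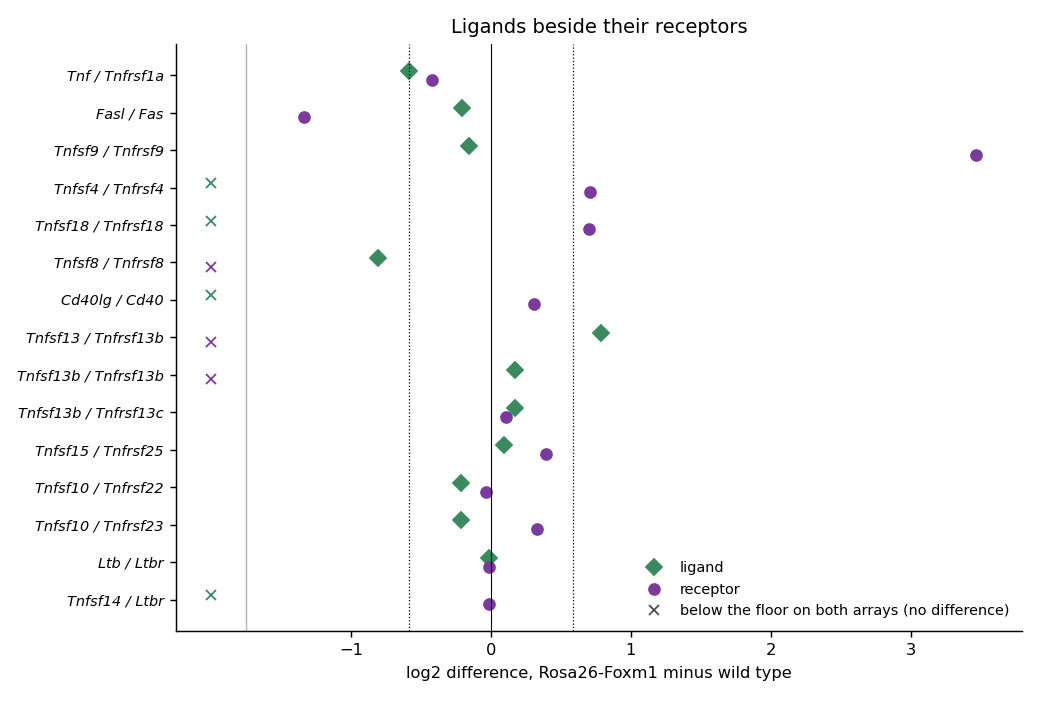
Log2 difference (Rosa26-Foxm1 minus wild type) of each ligand (green diamonds) and the receptor it binds (purple circles), 1 probe and 1 array per group each. Crosses at the left stand for genes below the floor on both arrays, which have no difference, and dotted lines mark 1.5-fold. Tnfsf9 and Tnfrsf9 are the farthest apart, at -0.16 and 3.47.

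Behind the receptors stands a shared signalling machinery. Of 56 listed genes, 41 had a probe and 37 were measured. In Rosa26-Foxm1 lung 1 was 1.5-fold higher (2.70%, beside 7.08% of all measured genes) and 5 lower (13.5%, beside 8.45%), and the median of -0.06 equalled that of all measured genes. With median scaling, the deposited values or loess, 2 were higher. Among death signalling genes, Cflar, the FLICE inhibitor that blocks caspase 8, was at 31.8 in the wild-type pool and 19.2 in the Rosa26-Foxm1 pool, 1.66-fold lower. Apaf1, the apoptosome scaffold, was at 3.19 and 1.97, 1.62-fold lower. The adaptor Fadd (4.77 and 4.84) and the kinase Ripk3 (13.5 and 14.3) differed by less than the probe SD, and Casp8 was below the floor on both arrays. Cycs (0.31) was the highest of the 8 measured.

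Of 15 measured NF-kB kinases and adaptors, 2 were 1.5-fold lower (13.3%, beside 8.45% of all measured genes). None was higher, where 7.08% of all were. Map3k14, the NIK kinase of the non-canonical pathway downstream of OX40, BAFF and lymphotoxin receptors, was at 2.70 and 1.59, 1.70-fold lower. Map3k5, the stress kinase ASK1, was at 24.4 and 15.5, 1.57-fold lower. Birc3 (0.22), Tank (0.16) and Sharpin (0.05) were the highest. Among 7 subunits and inhibitors, Nfkbib was at least 2.15-fold higher, with its wild-type value under the floor, and Nfkbie was at 17.9 and 26.4 (0.56). Rela (-0.37) was the lowest, and Nfkb2 differed by 0.09. Of the negative regulators and shedding enzymes, Adam10, a metalloprotease that cleaves several membrane proteins, was at 5.29 and 3.03, 1.75-fold lower. Adam17, which releases TNF and its receptors from the membrane, was at 17.8 and 13.5 (-0.41), and the NF-kB inhibitor Tnfaip3 at 3.83 and 4.15 (0.12).

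Of 30 listed genes known to be induced by TNF, 23 were measured, and more of them were higher than lower. In all 8 were 1.5-fold higher (34.8%, beside 7.08% of all measured genes) and 2 lower (8.70%, beside 8.45%), and the median was 0.17. The highest were the acute phase and chemokine genes Lcn2 (3.93), Cxcl1 (3.43) and Saa3 (3.41), and the lowest Mmp9 (-0.60), Cd44 (-0.59) and Tnfaip2 (-0.40). These 3 highest were already known as large differences when the list was made, and the list also holds genes induced by other cytokines. Chosen after their values were seen, the endothelial adhesion genes Icam1 (19.2 and 17.2, wild type first) and Vcam1 (6.05 and 5.46) differed by less than the probe SD. Sele, another endothelial adhesion gene of the list, was dim at 1.73 and 2.98, 1.72-fold higher. The growth factor gene Csf2, also chosen after its values were seen, had 1.89 and 4.99 (2.64-fold higher). Among lymphoid organising genes, which lymphotoxin beta receptor signalling is known to control, Ccl19 (1.11) and Cxcl13 (1.03) were higher, Ccl21a was at 0.33 and the follicular receptor Cr2 lower (-1.62). Madcam1 and Glycam1 were below the floor on both arrays.

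**Figure D4:**
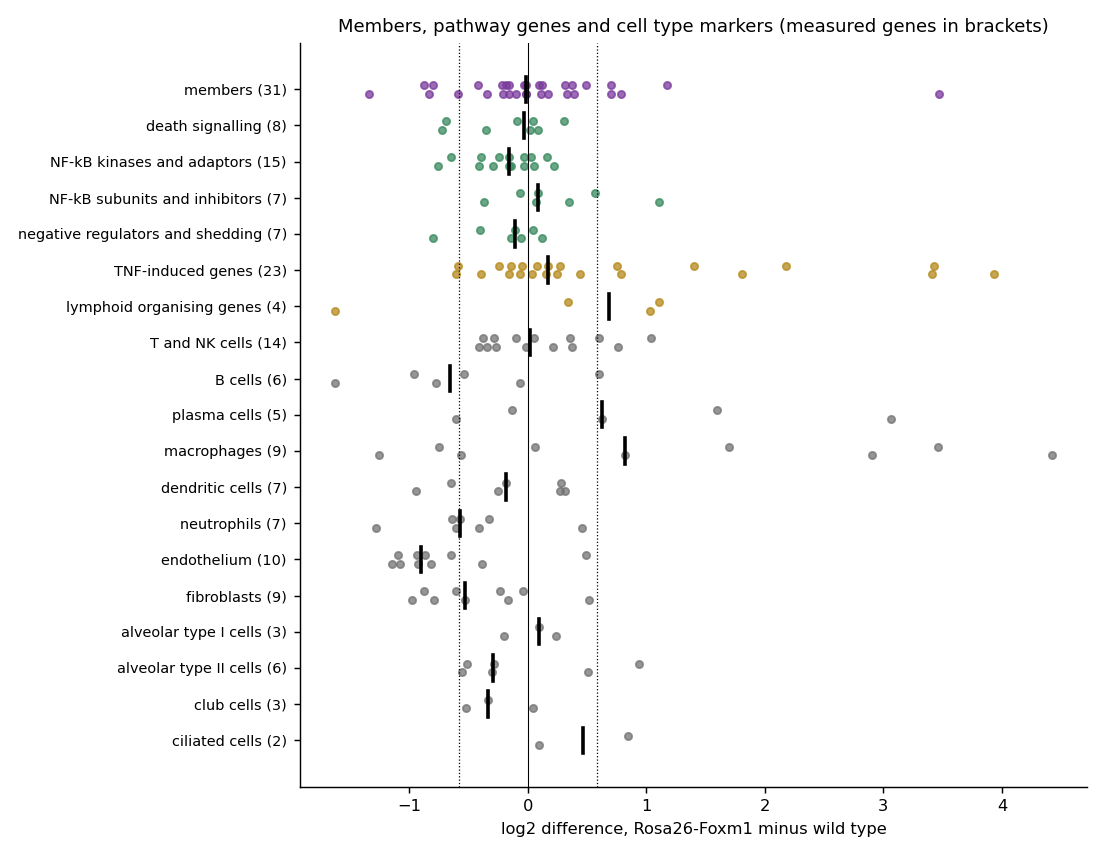
Log2 difference (Rosa26-Foxm1 minus wild type) of each measured gene by list, with the number measured in brackets: TNF superfamily and TRAF genes (purple), signalling genes (green), target genes (yellow) and cell type markers (grey). Black bars are medians and dotted lines mark 1.5-fold. The members centre at -0.02 with Tnfrsf9 far to the right, and the endothelial markers centre at -0.90.

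Of the 10 members past 1.5-fold, 9 stayed past it in every setting that measured them, and 4 of the 10 were bright enough to be measured in all 8 settings. Each of the 10 has a single probe, above the floor on both arrays. The 25th percentile floor, no floor and the median over probes therefore had to return the main value. Only the other scalings and the higher floor could move it, and all settings use the same arrays.

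**Figure D5:**
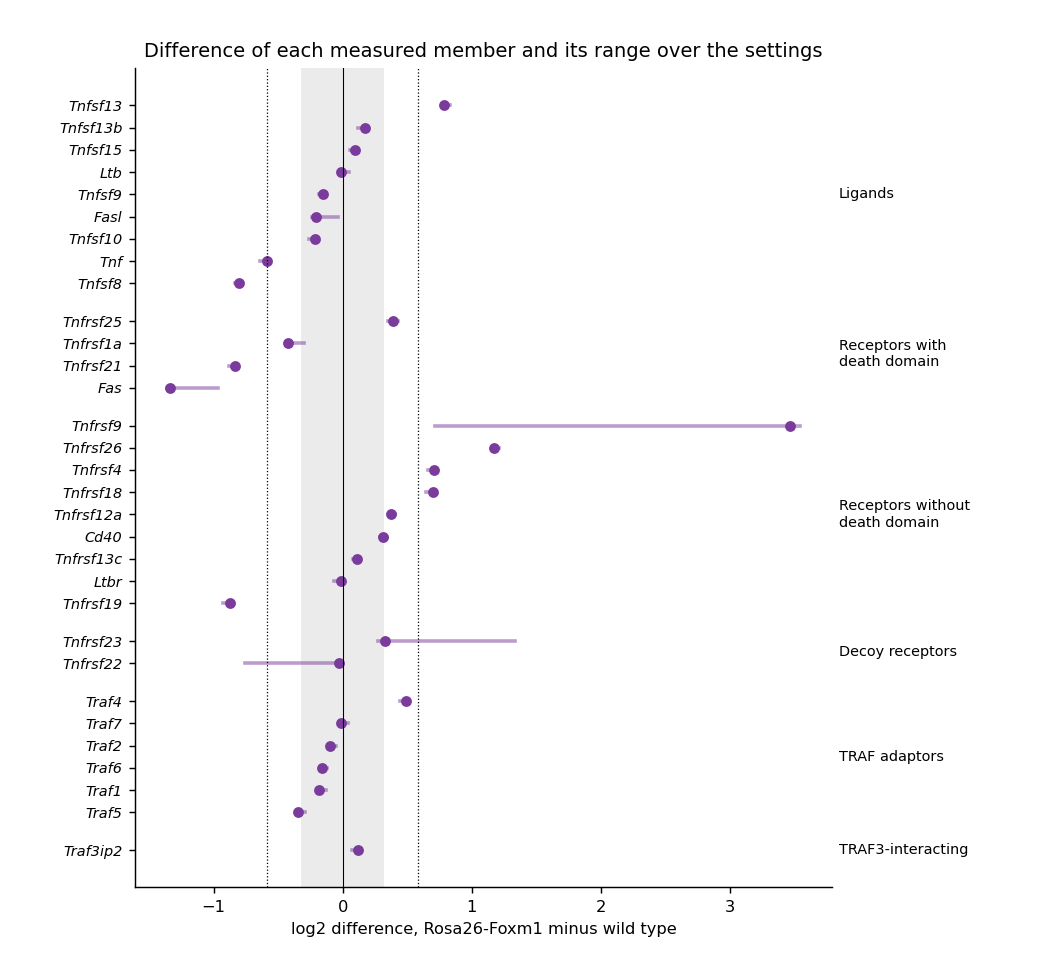
Log2 difference (Rosa26-Foxm1 minus wild type) of each measured member (dot) and its lowest to highest value over up to 8 settings of scaling, floor and probe choice (bar). The grey band is 1 probe SD (0.31) either side of 0, and dotted lines mark 1.5-fold. Tnfrsf9 (0.72 to 3.55), Tnfrsf23 and Tnfrsf22 have the longest bars, all of them close to or below the floor on 1 array.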

How the data were processed

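Probe intensities, 1 per probe and array, are the values the authors deposited on a linear scale. Per the labels' protocols, digoxigenin-labelled cRNA was hybridised and read by chemiluminescence. How images were read, corrected for background and normalised is not stated in the sources used here, but both deposited columns have a median of 1.00 and so were already scaled. Probes with 1 gene were named from the platform annotation and updated by gene ID to RefSeq symbols (GRCm38.p6). The 33012 probe values were put through quantile normalisation, raised to a floor at the 50th percentile where lower, and log2 transformed (Python 3.11.15, NumPy 2.4.6, pandas 2.3.3; loess in statsmodels 0.14.6). Of several probes for a gene, the one with the highest mean log2 value was used. A fold is written "at least" where the dimmer value lay under the floor. The probe SD uses the 2 brightest measured probes of a gene. Scaling and 2-fold calls were tested on simulated data with large changes in probes above the 75th percentile. Calls at 1.5-fold and changes in dim genes were not tested that way. As alternatives, scaling was by the median, by loess (span 0.3) or left as deposited, the floor was moved to the 25th or 75th percentile or dropped, and the median was taken over a gene's probes. By rule, the text gives every member, members past 1.5-fold in full, and up to 3 genes at each end of the other lists. The members and lists were chosen with earlier results of these data known, and roles were assigned from textbook knowledge. Precision is limited by 1 array per group.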

Additional observations from a re-analysis of the deposited data

How the results depend on the processing

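Scaling changed little. With median scaling, deposited values, loess and the median over probes, all 31 measured members moved by less than the probe SD, and the counts of members past each fold moved by less than 1.5 times, Tnf leaving the 1.5-fold group with loess. The median over probes could move only Fasl, the 1 member with 2 measured probes. Signs of Ltb, Ltbr and Traf7 turned with at least 1 scaling, at values within the probe SD. Counts moved with the floor. At the 25th percentile (38 members measured), 8 members were 1.5-fold higher and 8 lower, 5 and 2 at 2-fold. With no floor (44 measured) these were 9, 10, 5 and 4, and at the 75th percentile (13 measured) 3, 1, 1 and 0. The shares over all measured genes moved with the floor too. At the 25th percentile 10.9% of them were 1.5-fold higher and 12.4% lower. These shares were 13.2% and 14.4% with no floor, and 4.31% and 5.24% at the 75th percentile. The lower floors test more dim genes and the higher floor fewer. Tnfrsf23 went from 0.33 to 1.34 and Tnfrsf22 from -0.03 to -0.76 with the lower floors, and at the 75th percentile Tnfrsf9 was at 0.72 and Fas at -0.97. Of the signalling genes, 2 were 1.5-fold higher with median scaling, deposited values, loess or no floor, and 0 with the floor at the 75th percentile, where 2 were lower. No paired analysis was possible because each group has 1 array and the labels carry no replicate numbers. Signal near background limits the 13 genes below the floor and the folds of Tnfrsf9, Tnfrsf4, Tnfrsf18, Tnfsf8, Tnfrsf21, Tnfrsf19 and Tnf. All of the named genes were low on at least 1 array.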

Other observations

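Several members are neighbours on their chromosome, with no other protein-coding gene between them in RefSeq, and were looked at after the values were known. Tnfrsf4 and Tnfrsf18 on chromosome 4 had the same log2 difference of 0.70. Tnfrsf26, Tnfrsf22 and Tnfrsf23, in a row on chromosome 7, were at 1.17, -0.03 and 0.33, the last pair bounded by the floor. On chromosome 4 Tnfsf15 and Tnfsf8 were at 0.10 and -0.80. Ltb, Tnf and Lta, in a row on chromosome 17, were at -0.01, -0.59 and below the floor on both arrays. No test was run on these neighbours.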
